A study of Mus musculus with 10 samples.

Results

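NAD salvage, NAD use and sirtuins are described here in obstructed mouse kidneys through 10 genes: Nampt, Nmnat1, Nmnat3, Naprt, Nadsyn1, Nadk, Cd38, Nnmt, Sirt1 and Sirt3. They were picked by gene name, as enzymes that make or salvage NAD, enzymes that use or clear it, and sirtuins, and they are 10 of the 54532 genes in the deposited table. Bulk RNA-seq was done on kidneys with unilateral ureteral obstruction (UUO) from mice given PBS or dimethyl malonate (DMM), a prodrug of malonate that inhibits succinate dehydrogenase, with 5 mice and 5 libraries in each group. All mice were wild-type C57BL/6 males, 8 weeks old at ureter ligation, and the kidneys were taken on day 14. DMM doses of 40 mg/kg were given by intraperitoneal route on alternate days. The comparison asks which transcripts differ in the obstructed kidney under DMM. No kidney without obstruction was analysed here. Libraries from PBS kidneys held 16457495 to 18078777 counted reads (median 17825223), and those from DMM kidneys 15722527 to 19475833 (median 16794390).

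NAD carries electrons in glycolysis, the citric acid cycle and fatty acid oxidation, and proximal tubule cells, which are rich in mitochondria, use much of it. Cells rebuild it mainly by salvage, in which Nampt joins nicotinamide to a ribose phosphate and the Nmnat enzymes complete the dinucleotide. They also make it from nicotinic acid (Naprt, then Nadsyn1) or from tryptophan, a route in which the kidney is unusually active. Sirtuins, PARP enzymes and the ectoenzyme Cd38 split NAD and release nicotinamide, and Nnmt methylates nicotinamide so that it leaves the cycle.

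The libraries PBS replicate 3, DMM replicate 1 and DMM replicate 4 stood apart from the others of their group. When the deposited group means were fitted linearly on the deposited counts, the weight was 0 for PBS replicate 3 and for DMM replicate 1, against weights from 0.227 to 0.271 for the other 8 libraries, and no reason is given in the sources used here. Both resembled the opposite group in some genes. The summed level of 15 interferon response genes, as CPM (counts scaled to a common library size by TMM), was 4317, 2695, 3121, 4367 and 4215 in PBS replicates 1 to 5 and 3357, 515, 462, 504 and 388 in DMM replicates 1 to 5. DMM replicate 1 was thus at the level of PBS kidneys. For 12 proximal tubule genes the sums were 2559, 2621, 6036, 1181 and 2066 CPM in PBS and 1873, 5032, 6136, 5090 and 7474 CPM in DMM kidneys, where PBS replicate 3 was at the level of the DMM kidneys. DMM replicate 4 differed in another way. It held the highest value of the 10 libraries in 33.6% of the tested genes and the lowest in 35.7%, and genes of at least 6000 bp took 47.6% of its counts against 34.7% to 38.0% in the other 9 libraries. Results are therefore given over all 10 libraries, over the 8 libraries that enter the deposited means, and over those 8 without DMM replicate 4 (7 libraries). Not every gene is given in every set. The smaller sets were chosen with results known, which their p-values do not take into account.

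No NAD gene was called changed by edgeR's quasi-likelihood test over all 10 libraries, where a call needed a fold change of more than 1.5 with p below 0.05 after Benjamini-Hochberg adjustment. The count was 0 of 10 members, as it was for all 16505 tested genes (0%), and DESeq2 called 41 genes and 0 members. At an unadjusted p under 0.05 stood 1 member in either tool (Nampt in edgeR), and 1764 of all tested genes in edgeR (10.7%) and 2150 in DESeq2. Over the 8 libraries 0 of 10 members were called by edgeR or DESeq2, against 990 of 16550 genes in edgeR (5.98%), of which 422 (2.55%) were higher and 568 (3.43%) lower in DMM kidneys. There 0 members had an unadjusted p under 0.05 in edgeR and 2 in DESeq2, against 21.2% of all tested genes in edgeR and 4023 of 16550 in DESeq2. Without DMM replicate 4, 2 of 10 members were called, Sirt3 and Naprt, both higher, against 2351 of 16828 genes (14%). The members' count over 7 libraries was thus close to the share among all genes. The median log2 fold change of the 10 members was 0.042 over 10 libraries, 0.065 over 8 and 0.012 over 7, beside 0.019, 0.021 and -0.011 for all tested genes. The values of DMM and PBS kidneys overlapped in all 10 members over 10 libraries and over 8, where 1.95% and 20.1% of tested genes did not overlap. Over 7 libraries 4 members did not overlap (Naprt, Nmnat1, Nadsyn1 and Sirt3), against 37.2% of tested genes.

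**Figure D1:**
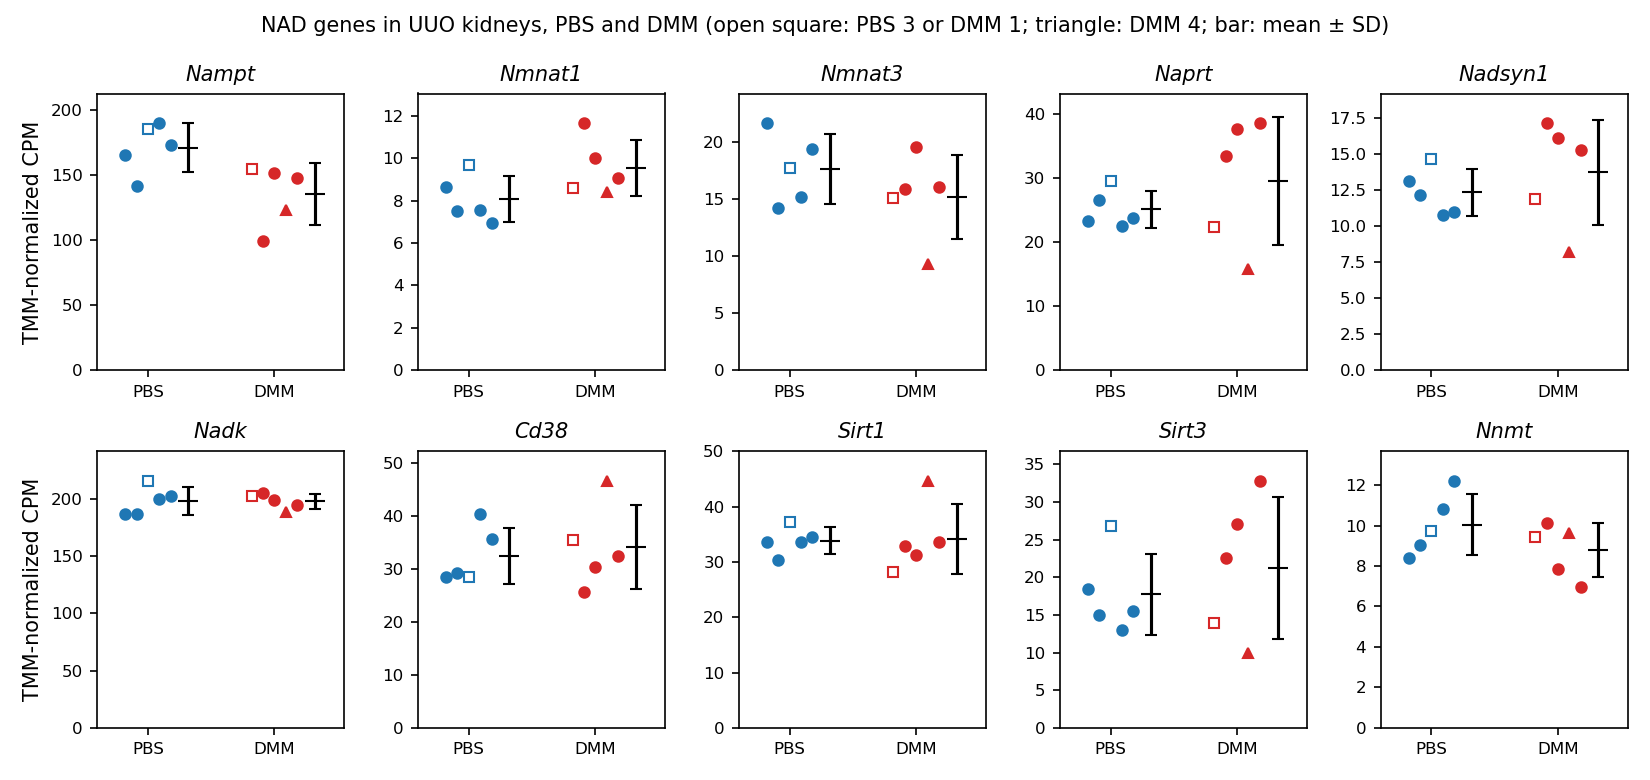
Normalized counts of the 10 NAD genes (vertical axis, CPM after TMM scaling, starting at 0) in 5 PBS and 5 DMM kidneys. Each symbol is a library, the open squares are PBS replicate 3 and DMM replicate 1, the triangle is DMM replicate 4, and the bar shows the mean ± SD of 5. DMM replicate 4 holds the lowest value of Naprt (15.8), Nmnat3 (9.35), Nadsyn1 (8.20) and Sirt3 (9.89) and the highest of Cd38 (46.6) and Sirt1 (44.7).

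Levels of the members were compared per length, in the deposited FPKM values, as mean ± SD over all 10 libraries (n = 10). Nadk was the most abundant at 52.6 ± 2.49 FPKM, ahead of Nampt at 30.2 ± 5.46 FPKM, and both orders (Nadk over Nampt, Nampt over the next gene, Naprt) held in 10 of 10 libraries. Naprt at 11.6 ± 3.13 FPKM was above Cd38 at 8.50 ± 1.63 FPKM in 8 of 10 libraries, and Cd38 was above Sirt1 in 10 of 10. Sirt1 at 6.34 ± 0.825 FPKM and Nnmt at 5.95 ± 0.942 FPKM did not differ beyond their spread, with Sirt1 the higher in 5 of 10 libraries. The least abundant members lay close together: Nadsyn1 at 3.92 ± 0.831 FPKM, Nmnat3 at 3.26 ± 0.684 FPKM, Sirt3 at 3.25 ± 1.24 FPKM and Nmnat1 at 2.88 ± 0.454 FPKM. Nmnat3 exceeded Sirt3 in 6 of 10 libraries and Sirt3 exceeded Nmnat1 in 6 of 10, so the order of these neighbours was not settled. All 10 members passed the filter on low counts, with 115 counts in the lowest library of any member.

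Nampt (chromosome 12, 32819545 to 32853349 on the plus strand, mm10), the rate-limiting enzyme of salvage, had the smallest p of the members over 10 libraries. Its level was 165, 142, 185, 189.9 and 173 CPM in PBS replicates 1 to 5 and 154, 99.4, 152, 123 and 148 CPM in DMM replicates 1 to 5. The DMM kidneys lay low, DMM replicate 2 lowest, but PBS replicate 2 lay among them and the groups overlapped. The mean was 171 ± 19.0 CPM (SD, n = 5) in PBS and 135 ± 23.6 CPM (SD, n = 5) under DMM, for a log2 fold change of -0.34 (SE 0.14) with an adjusted p of 0.440 in edgeR. Over 8 libraries it was -0.36 (SE 0.16, adjusted p = 0.243) and over 7 libraries -0.33 (SE 0.16, adjusted p = 0.168). With each library left out in turn it ranged from -0.39 to -0.24 over 10 libraries and from -0.44 to -0.25 over 8, the smallest without DMM replicate 2. It stayed negative and did not pass the test in any of these sets.

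Nampt is abundant in adipose tissue and in neutrophils, and both kinds of marker varied between the kidneys. The sum of 4 adipose genes was 0.159, 6.11, 0.225, 27.3 and 0.587 CPM in PBS and 0.431, 0.503, 0.453, 0 and 2.003 CPM in DMM kidneys, with Adipoq the most abundant. Lep was at 0 in 9 of 10 libraries, and 0 of the 4 genes passed the filter over 10 libraries. PBS replicate 4, with the most adipose signal, held the highest Nampt value, while PBS replicate 2, next in adipose signal, held the lowest of the PBS kidneys. The sum of 6 neutrophil genes was 25.8, 25.2, 21.6, 114 and 35.6 CPM in PBS and 32.9, 18.5, 28.9, 108 and 26.5 CPM in DMM kidneys, with Csf3r the most abundant (mean 21.8 CPM) and 0 of 5 tested genes called over 8 libraries. Ly6g, a defining neutrophil marker, did not pass the filter and was at most 0.352 CPM. The part of either cell type in the level of Nampt was not tested. In whole kidney RNA, fewer cells of a type and less RNA per cell cannot be told apart.

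The Nmnat enzymes join the nicotinamide or nicotinic acid mononucleotide to the adenylate of ATP, Nmnat1 in the nucleus and Nmnat3 in mitochondria. Nmnat1 (chromosome 4, 149467572 to 149485202, minus strand) was at 8.62, 7.52, 9.66, 7.54 and 6.93 CPM in PBS and at 8.57, 11.6, 10.02, 8.38 and 9.04 CPM in DMM kidneys. PBS replicate 3 was the highest of the PBS libraries, and the groups overlapped through it and PBS replicate 1. The log2 fold change was 0.24 (SE 0.15, adjusted p = 0.549) over 10 libraries, 0.35 (SE 0.16, adjusted p = 0.260) over 8 and 0.42 (SE 0.14, adjusted p = 0.0511) over 7. Nmnat3 (chromosome 9, 98287435 to 98420438, plus strand) was at 21.6, 14.2, 17.7, 15.1 and 19.3 CPM in PBS and at 15.0, 15.9, 19.52, 9.35 and 16.0 CPM in DMM kidneys. Only DMM replicate 4 lay below all PBS libraries. Its log2 fold change was -0.22 (SE 0.19, adjusted p = 0.665) over 10 libraries, -0.21 (SE 0.24, adjusted p = 0.662) over 8 and -0.035 (SE 0.16, adjusted p = 0.898) over 7. The isoforms therefore differed in sign in each set, and neither passed the test. That difference between them was not tested.

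Naprt and Nadsyn1 catalyse the opening and closing steps of the Preiss-Handler route from nicotinic acid. Naprt (chromosome 15, 75890956 to 75894481, minus strand) was at 23.3, 26.6, 29.5, 22.6 and 23.7 CPM in PBS and at 22.3, 33.4, 37.6, 15.8 and 38.5 CPM in DMM kidneys. DMM replicates 2, 3 and 5 lay above all PBS libraries, while DMM replicates 1 and 4 lay below all of them. The log2 fold change was 0.23 (SE 0.23, adjusted p = 0.691) over 10 libraries and 0.38 (SE 0.26, adjusted p = 0.442) over 8. Without DMM replicate 4 it was 0.60 (SE 0.086, adjusted p = 0.00118 in edgeR), or 1.52-fold, just past the fold change of the call. Nadsyn1 (chromosome 7, 143795584 to 143822849, minus strand) had a like pattern, at 13.1, 12.2, 14.7, 10.7 and 10.98 CPM in PBS and at 11.9, 17.1, 16.1, 8.20 and 15.2 CPM in DMM kidneys. Its log2 fold change was 0.15 (SE 0.20, adjusted p = 0.765) over 10 libraries, 0.27 (SE 0.23, adjusted p = 0.550) over 8 and 0.46 (SE 0.11, adjusted p = 0.0143) over 7, under the fold change of the call. Naprt shares 277 of its 2344 exon bases (11.8%) with Eef1d on the same strand, and how such reads were counted is not given in the sources used here.

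Nadk (chromosome 4, 155562378 to 155591001, plus strand), the cytosolic kinase that turns NAD into NADP, varied least. It was at 187, 186, 216, 199.8 and 202 CPM in PBS and at 202, 205, 199, 188 and 195 CPM in DMM kidneys. PBS replicate 3 was the highest, and all DMM libraries lay within the range of PBS. The mean was 198 ± 12.2 CPM (SD, n = 5) in PBS and 198 ± 6.52 CPM (SD, n = 5) under DMM, for a log2 fold change of -0.0025 (SE 0.088, adjusted p = 0.992) over 10 libraries and 0.021 (SE 0.098, adjusted p = 0.926) over 8. The SD of its log2 CPM over the 10 libraries was 0.067, at the 0.545 percentile of tested genes.

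Cd38 (chromosome 5, 43868553 to 43912375, plus strand) encodes a membrane glycohydrolase of immune and endothelial cells, a main consumer of NAD. Its level was 28.4, 29.3, 28.4, 40.3 and 35.6 CPM in PBS and 35.4, 25.6, 30.3, 46.6 and 32.4 CPM in DMM kidneys. The groups overlapped throughout, and the highest value of each group was in replicate 4, the libraries with neutrophil sums of 114 and 108 CPM. The mean was 32.4 ± 5.32 CPM (SD, n = 5) in PBS and 34.1 ± 7.87 CPM (SD, n = 5) under DMM, for a log2 fold change of 0.073 (SE 0.17, adjusted p = 0.873) over 10 libraries and 0.013 (SE 0.20, adjusted p = 0.978) over 8. Without DMM replicate 4 the sign turned, to -0.18 over 7 libraries (SE 0.14, adjusted p = 0.360). Of 7 macrophage genes edgeR called 1 (Cd68) lower over 8 libraries and 4 (also Adgre1, C1qa and C1qb) over 7, and their sum was 1354, 1280, 1099, 1316 and 1483 CPM in PBS against 1191, 882, 752, 760 and 780 CPM in DMM kidneys, with C1qb the most abundant. Of 7 T cell genes it called 1 (Cd4, also the most abundant) lower over 8 libraries and 3 (also Cd3d and Cd3g) over 7, and their sum was 54.2, 55.9, 52.9, 46.8 and 79.1 CPM in PBS against 50.2, 42.5, 17.7, 21.5 and 22.8 CPM in DMM kidneys. DESeq2 called 4 of the macrophage and 4 of the T cell genes lower over 8 libraries. The part of these cells in the level of Cd38 was not tested. The other glycohydrolases, Bst1 and Sarm1, had log2 fold changes of 0.15 and -0.039 over 8 libraries (adjusted p of 0.708 and 0.965), and Sarm1 was at most 0.898 CPM.

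Sirt1 (chromosome 10, 63319005 to 63381704, minus strand) encodes a nuclear NAD-dependent deacetylase. It was at 33.6, 30.3, 37.3, 33.7 and 34.4 CPM in PBS and at 28.2, 32.9, 31.2, 44.7 and 33.7 CPM in DMM kidneys. Apart from DMM replicate 4, which was high, the libraries lay within a narrow range. The log2 fold change was 0.012 (SE 0.13, adjusted p = 0.977) over 10 libraries, 0.11 (SE 0.14, adjusted p = 0.694) over 8 and -0.018 (SE 0.074, adjusted p = 0.886) over 7.

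Sirt3 (chromosome 7, 140863666 to 140882309, minus strand), the main deacetylase of the mitochondrial matrix, varied most of the members, with a 3.32-fold span from the lowest to the highest library. It was at 18.5, 15.0, 26.8, 13.1 and 15.5 CPM in PBS and at 13.9, 22.6, 27.0, 9.89 and 32.8 CPM in DMM kidneys. DMM replicates 2, 3 and 5 and PBS replicate 3 were high, and DMM replicate 4, PBS replicate 4 and DMM replicate 1 were the lowest, in that order. The mean was 17.8 ± 5.39 CPM (SD, n = 5) in PBS and 21.2 ± 9.40 CPM (SD, n = 5) under DMM, for a log2 fold change of 0.26 (SE 0.32, adjusted p = 0.752). Over 8 libraries it was 0.57 (SE 0.32, adjusted p = 0.353). With each library left out in turn it ranged from 0.046 to 0.45 over 10 libraries and from 0.35 to 0.82 over 8, the lowest without DMM replicate 5, which holds the highest value. Over 7 libraries it was 0.82 (SE 0.15, adjusted p = 0.00322), or 1.77-fold, and called. When PBS replicate 4 was left out as well, a set of 6 libraries added after the data were seen, it was 0.75 (adjusted p = 0.00587) and Naprt was 0.57 (adjusted p = 0.00243), below the fold change of the call. With PBS replicate 3 and DMM replicate 1 kept and only DMM replicate 4 left out, Sirt3 was at 0.44 (adjusted p = 0.402) and Naprt at 0.39 (adjusted p = 0.278).

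The libraries with high Sirt3 and Naprt, DMM replicates 2, 3 and 5 and PBS replicate 3, were among those with high proximal tubule sums. In DMM replicate 4 both genes were low, and its tubule sum rested largely on Lrp2 and Cubn, the longest genes of that list. Without them the sums were 1964, 2040.0, 4653, 888 and 1604 CPM in PBS and 1418, 3924, 4599, 2066 and 5848 CPM in DMM kidneys, which puts DMM replicate 4 near PBS replicates 1 and 2. Of the 12 proximal tubule genes edgeR called 10 higher over 7 libraries, the set in which Sirt3 and Naprt were called, 5 over 8 and 0 over 10, and DESeq2 called 11 over 8. Lrp2 was the most abundant, and none was at 0 in any library. The part of tubule cell content in these values was not tested. On the opposite strand, exons of Ric8a and Psmd13 cover 418 (6.998%) and 342 (5.73%) of the 5973 exon bases of Sirt3, and whether counting used strand is not given. Over 7 libraries the log2 fold change was -0.046 for Ric8a and 0.024 for Psmd13, with adjusted p of 0.685 and 0.823.

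**Figure D2:**
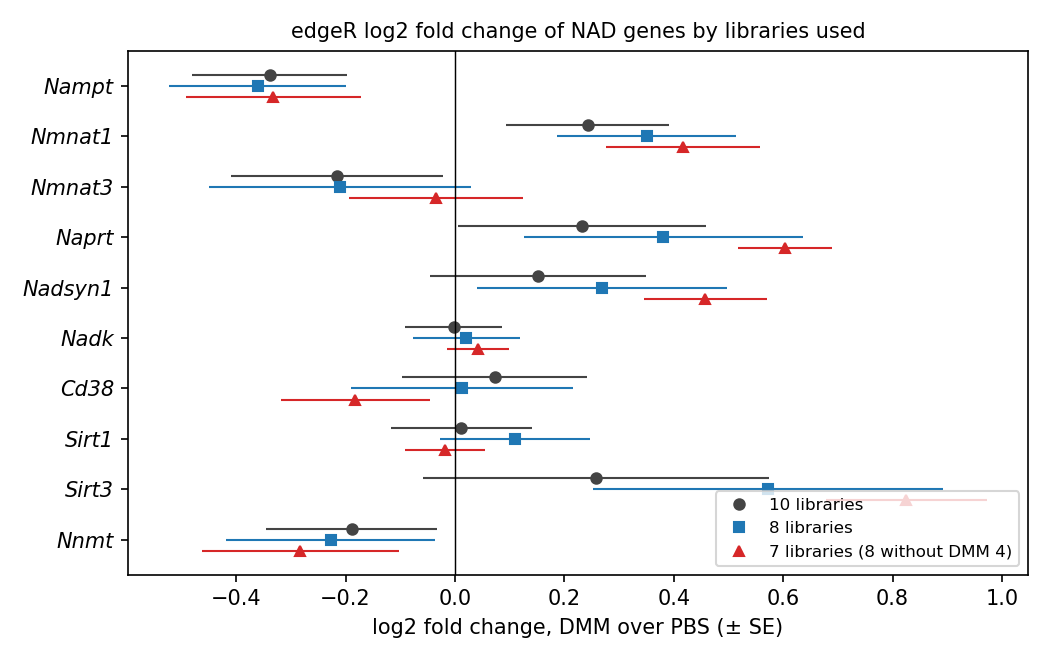
The log2 fold change of DMM over PBS with its SE (horizontal axis) for each NAD gene (vertical axis) over 10 libraries (circles), 8 libraries (squares) and 7 libraries (triangles). Nampt stays between -0.36 and -0.33, Sirt3 moves from 0.26 to 0.57 and 0.82, and Cd38 moves from 0.073 to 0.013 and -0.18.

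Across all sirtuins, 0 of 7 were called over 10 or 8 libraries by edgeR, with 0 and 1 at an unadjusted p under 0.05, and only Sirt3 over 7. The median log2 fold change was 0.030 over 8 libraries and 0.15 over 7. Sirt6 and Sirt7, 2 nuclear sirtuins, had the smallest p of the list over 10 libraries, with log2 fold changes of -0.29 (SE 0.15, adjusted p = 0.507) and -0.31 (SE 0.24, adjusted p = 0.614). Over 8 libraries they were -0.41 (adjusted p = 0.165) and -0.35 (adjusted p = 0.541), and over 7 libraries -0.33 (adjusted p = 0.0719) and -0.098 (adjusted p = 0.317). Sirt7 was at 35.5 to 41.8 CPM in 9 libraries and at 13.0 CPM in DMM replicate 4. Sirt4, named after its values were seen, was at 0.784 CPM in that library and between 7.81 and 12.2 CPM in the others.

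Nnmt (chromosome 9, 48591877 to 48605153, minus strand), the methyltransferase that clears nicotinamide, was at 8.41, 9.05, 9.71, 10.8 and 12.2 CPM in PBS and at 9.43, 10.1, 7.87, 9.65 and 6.98 CPM in DMM kidneys. DMM replicates 3 and 5 lay below all PBS libraries, and the other DMM libraries lay among them. The log2 fold change was -0.19 (SE 0.16, adjusted p = 0.635) over 10 libraries, -0.23 (SE 0.19, adjusted p = 0.543) over 8 and -0.28 (SE 0.18, adjusted p = 0.280) over 7. The aldehyde oxidases Aox1 and Aox3, which oxidise methylated nicotinamide, had log2 fold changes of -0.42 and -1.31 over 10 libraries (adjusted p of 0.586 and 0.397), -0.72 and -1.28 over 8 (0.191 and 0.163) and -0.74 and -1.05 over 7 (0.0925 and 0.119).

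Around the members, 47 other genes of 8 NAD lists were examined, of which 42 were tested. Over 10 libraries edgeR called 0 of them, with 10 at an unadjusted p under 0.05, and over 8 libraries it called 9 (21.4%), 2 higher and 7 lower, beside 5.98% of all genes. Over 7 libraries it called 16 (38.1%), 10 higher and 6 lower, beside 14% of all genes. These shares rest largely on single lists. Of the 9 calls over 8 libraries 6 were PARP genes, and Pnp was the only other gene called lower. Over 7 libraries 5 of the 6 lower calls were PARP genes and 6 of the 10 higher calls were genes of synthesis from tryptophan. The lists were chosen with earlier results known. In salvage, Pnp, the purine nucleoside phosphorylase that also splits nicotinamide riboside, was at 65.9, 77.7, 72.6, 88.7 and 85.1 CPM in PBS and at 81.1, 48.7, 50.2, 28.2 and 45.4 CPM in DMM kidneys. DMM replicate 1 lay among the PBS libraries and the other DMM libraries below all of them. Its log2 fold change was -0.62 (SE 0.23, adjusted p = 0.401) over 10 libraries, -0.88 (SE 0.19, adjusted p = 0.0311) over 8 and -0.72 (SE 0.10, adjusted p = 0.00104) over 7. The call over 8 libraries was lost when any library but DMM replicate 4 was left out, with an adjusted p of up to 0.106. The log2 fold change in those sets stayed between -0.96 and -0.82. Nmrk1, a nicotinamide riboside kinase named after its values were seen, went the other way. It was called higher over 7 libraries only, at 0.61 (SE 0.15, adjusted p = 0.0152), against 0.42 (adjusted p = 0.363) over 8 and 0.26 (adjusted p = 0.644) over 10.

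In synthesis from tryptophan, edgeR called 1 of 7 tested genes over 8 libraries, all but 1 had an unadjusted p under 0.05, and the median log2 fold change was 1.35. Over 10 libraries it called 0, with 0 at an unadjusted p under 0.05 and a median of 0.66. Without DMM replicate 4 it called 6 of 7 higher (Ido2, Afmid, Kmo, Kynu, Haao and Qprt), and DESeq2 called 3 over 8 libraries (Kmo, Haao and Acmsd). Over 8 libraries the gene called by edgeR was Kmo, the kynurenine hydroxylase, at 18.9, 23.4, 45.5, 13.7 and 17.7 CPM in PBS and at 16.9, 45.1, 45.4, 32.0 and 65.6 CPM in DMM kidneys. PBS replicate 3 lay with the high DMM libraries and DMM replicate 1 with the low PBS libraries. The summed level of the list was 95.5, 104, 214, 56.6 and 86.8 CPM in PBS and 73.0, 186, 207, 119 and 219 CPM in DMM kidneys, high in PBS replicate 3 and DMM replicates 2, 3 and 5, whose proximal tubule sums were also high, and lowest, as those were, in PBS replicate 4. DMM replicate 4, with a tubule sum of 5090 CPM, or 2066 CPM without Lrp2 and Cubn, was not among the high ones. The part of tubule cell content in these values was not tested. The log2 fold change of Kmo was 0.78 (SE 0.38, adjusted p = 0.498) over 10 libraries and 1.35 (SE 0.24, adjusted p = 0.0142) over 8. From the 8, it was 1.23 (adjusted p = 0.0512) without PBS replicate 4 and 1.33 (adjusted p = 0.0627) without PBS replicate 5. Kmo overlaps Fh1 on the opposite strand. Other named genes also overlap neighbours, among them Parp9 (Dtx3l) and Nr1d1 (Thra) on the opposite strand. Parp10 (Plec), Sirt7 (Mafg) and Pnp (Pnp2) do so on the same strand. Shared exon bases were examined for the members only. Of 5 genes of precursor uptake and sensing edgeR called 1 higher over 8 libraries and 2 over 7 (also Slc22a13). The former was Slc5a8, a transporter of monocarboxylates including nicotinate, at 1.31 (SE 0.18, adjusted p = 0.00581) over 8 and 0.76 (SE 0.35, adjusted p = 0.469) over 10.

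Among the consumers, 6 of 15 PARP genes were called lower over 8 libraries and 5 over 7 (not Parp3), and the list's median log2 fold change was -0.20. They were Parp9, Parp10, Parp11, Parp12 and Parp14, which belong to the interferon-induced genes, and Parp3, with log2 fold changes of -1.83, -1.54, -1.06, -1.99, -1.99 and -0.69. Over 10 libraries these were -1.24, -1.08, -0.71, -1.29, -1.29 and -0.43, with adjusted p from 0.392 to 0.486. Parp1, which uses most NAD after DNA damage and was named for that role after its values were seen, was at 0.023 (SE 0.13, adjusted p = 0.943) over 8 libraries. It was at 0.054 (adjusted p = 0.853) over 10 libraries, and its sign turned over 7, to -0.11 (adjusted p = 0.169). The calls of Parp3 and Parp11 over 8 libraries were lost without PBS replicate 1, 2, 4 or 5 or DMM replicate 3 or 5, and that of Parp11 also without DMM replicate 2 (adjusted p up to 0.126 for Parp3 and 0.0840 for Parp11). Without DMM replicate 4 Parp3 missed the fold change of the call, at -0.58 with an adjusted p of 0.00340. Their log2 fold changes ranged from -0.81 to -0.58 (Parp3) and from -1.31 to -0.91 (Parp11).

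Of the 4 genes of NADP formation and mitochondrial NAD, edgeR called 0 over 10 or 8 libraries, with 2 and 3 at an unadjusted p under 0.05, and 1 (Nnt) over 7. Nnt, the mitochondrial transhydrogenase, which carries a deletion in the C57BL/6J substrain, was at 0.582, 0.294, 0.337, 0.425 and 0.352 CPM in PBS and at 0.431, 0.755, 1.02, 2.71 and 1.03 CPM in DMM kidneys. The values were low in all libraries but highest in DMM replicate 4, and the log2 fold change was 1.56 (SE 0.48, adjusted p = 0.392) over 10 libraries and 1.71 (SE 0.49, adjusted p = 0.0746) over 8. It was called higher by DESeq2 over 8 libraries (1.75, adjusted p = 0.0207) and by edgeR over 7 (1.16, adjusted p = 0.0428). Slc25a51, the mitochondrial NAD carrier, was at 0.28 (SE 0.12, adjusted p = 0.440) over 10 libraries and 0.41 (SE 0.11, adjusted p = 0.0570) over 8. Nadk2, the mitochondrial NAD kinase, named after its values were seen, had the smallest adjusted p of the list over 8 libraries, at 0.57 (SE 0.13, adjusted p = 0.0339), a 1.49-fold difference just under the fold change of the call. Of 10 substrates and regulators of sirtuins edgeR called 2 higher over 8 libraries, 0 over 10 and 6 over 7, and DESeq2 called 5 over 8. Their sum was 928, 884, 1205, 795 and 906 CPM in PBS and 869, 1113, 1367, 1163 and 1548 CPM in DMM kidneys, high in PBS replicate 3 and low in PBS replicate 4 and DMM replicate 1, as the proximal tubule sums were, whose part was not tested. Over 8 libraries, Sod2, whose product Sirt3 deacetylates, was at 0.70 (SE 0.11, adjusted p = 0.00942), with PBS replicate 3 at 135 CPM against 72.5 to 86.4 CPM in the other PBS kidneys. Over 10 libraries Sod2 was at 0.40 (SE 0.20, adjusted p = 0.499). Ppargc1a was at 1.09 (SE 0.27, adjusted p = 0.0491) over 8 libraries and 0.77 (adjusted p = 0.418) over 10. The call over 8 was lost without PBS replicate 1, 2, 4 or 5 or DMM replicate 3 or 5 (adjusted p up to 0.151). In those sets its log2 fold change stayed between 0.98 and 1.22. Without DMM replicate 4 it was 0.77 (adjusted p = 0.00917) and called. Of 7 clock genes, among which Clock drives the rhythm of Nampt, edgeR called 0 over 10 or 8 libraries, with 2 at an unadjusted p under 0.05 in each set. Nr1d1 and Per2 had the smallest p over 10 libraries, at 0.72 and 0.57 (adjusted p of 0.432 and 0.445). Nr1d1 was called higher by DESeq2 over 8 libraries (0.94, adjusted p = 0.0300) and by edgeR over 7 (1.14, adjusted p = 0.0143), where Cry1 was called lower.

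The genes most like each of the 3 most variable members were found by the root mean square difference of centred log2 CPM over the 10 libraries. They were picked as the smallest differences among all tested genes, so they lie below the median by choice. For Sirt3 they were Ccdc107 (0.091), Tcea3 (0.10) and Bpnt1 (0.10), against a median of 0.61 over all tested genes. Bpnt1, for one, was at 77.4, 70.6, 125, 56.6 and 68.1 CPM in PBS and at 68.5, 111, 123, 43.4 and 127 CPM in DMM kidneys. Its high libraries were those of Sirt3, and DMM replicate 4 and PBS replicate 4 were lowest in both genes. For Naprt they were Btd (0.072), Ndufa4 (0.080) and Ndufc1 (0.086), against a median of 0.50, the last 2 of them genes of respiratory chain subunits. For Nmnat3 they were Mplkip (0.11), Btc (0.11) and Snapc2 (0.12), against a median of 0.45.

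Promoters of 8 of the 10 members are in the RefSeq table (GRCm38.p6), without Naprt and Nnmt, and their 250 bases before each start were searched on both strands for 4 motifs. Some genes have more than 1 start, so these are 11 windows of 8 genes. They are not independent, and those of Nmnat1 share most of their bases. The core of the interferon-stimulated response element, GAAANNGAA, was in 0 of 11 windows and in 7.13% of all 32851 promoters. The gamma-activated site, TTCNNNGAA, which can share bases with it, was in 0 of 11 and in 7.02%. The E-box, CACGTG, was in 2 of 11 (1 of Nadk and that of Sirt1, which has 2 copies) and in 6.02%. The nuclear receptor half-site, AGGTCA, was in 1 of 11 (Nampt) and in 14%. The windows of Nampt, with the smallest p of the members, and of Pnp, the salvage gene called lower over 8 libraries, are printed with matches in capitals. That of Nampt is chr12:32820085-32820334, plus strand, inside the span of the deposited gene and outside annotated exons, with AGGTCA from 151 to 146 bases before the start. That of Pnp is chr14:50944053-50944302, plus strand, inside the span of the deposited gene with 1 base in a Pnp exon, and it holds a GAAANNGAA match on the minus strand from 22 to 14 bases before the start. Among named genes outside the members, GAAANNGAA was also in windows of Sarm1, Parp11, Ppargc1a and Nr1d1. Ppargc1a and Nr1d1 had positive log2 fold changes, and Sarm1 was not called. Of 3 called PARP genes with a promoter entry, 1 (Parp11) held it, and Parp12 did not. A match describes letters and no binding was measured.
Nampt: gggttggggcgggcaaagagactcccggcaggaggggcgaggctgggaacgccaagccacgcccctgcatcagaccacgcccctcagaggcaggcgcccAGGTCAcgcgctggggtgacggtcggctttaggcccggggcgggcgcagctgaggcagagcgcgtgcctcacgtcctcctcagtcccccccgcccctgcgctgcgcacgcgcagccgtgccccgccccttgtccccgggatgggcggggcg
Pnp: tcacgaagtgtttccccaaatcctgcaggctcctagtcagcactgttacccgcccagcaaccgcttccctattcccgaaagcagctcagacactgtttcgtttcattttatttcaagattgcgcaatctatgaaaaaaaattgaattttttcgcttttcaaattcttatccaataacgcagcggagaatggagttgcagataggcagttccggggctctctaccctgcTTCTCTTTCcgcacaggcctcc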

How the data were processed

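Bulk RNA-seq libraries of 10 UUO kidneys, 5 PBS and 5 DMM, were grouped by their labels. The authors aligned reads to mm10, with HISAT2 2.0.5 according to the submitters' processing notes, and deposited the raw count of reads per gene. The counting tool, annotation and strand setting are not given in the sources used here. The FPKM values that the authors deposited, counts per gene length and library size, were used only to compare levels between genes. The deposited group means, a signal in normalized counts, were used only to find which libraries they rest on. The deposited columns of the authors' fold changes and p-values hold their own comparison and were not used.

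Counts were filtered by filterByExpr, scaled by TMM and tested by the quasi-likelihood F test of edgeR 4.0.16 (robust fit, R 4.3.3), with p-values adjusted by Benjamini-Hochberg over all tested genes, and with DESeq2 1.42.0 as an alternative. Calls needed a fold change of more than 1.5 with an adjusted p below 0.05. The SE of a log2 fold change was computed from its F statistic. CPM used TMM factors, and log2 CPM a prior count of 2. The steps were tested on simulated data. The methods name no molecular identifiers, so reads copied from the same molecule cannot be told from independent molecules.

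The members and lists were chosen with earlier results of these data known. Named were all members, each gene of the NAD lists called over 10 or 8 libraries or else the 2 of smallest p in the list, the 3 genes most like each of the 3 most variable members, and the most abundant marker of a list with any marker at 0. Some genes called only over 7 libraries or by DESeq2 were also named, after their values were seen. Positions are those of the deposited table, and exons those of GENCODE vM21, which has the same start and end for 10 of 10 members. Alternatives were other scalings, filters, tests and gene sets, the replicate number as a block, and each library left out in turn.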

Additional observations from a re-analysis of the deposited data

Results flagged for a closer look

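In 62 groups of 5 libraries, from 31 named genes, the highest or lowest value was compared with its nearest neighbour, and the gap took more than 0.71 of the group's range in 6. Chance alone flags about 1 in 20 groups, a rate that does not hold for genes named because of their calls. No value of the 10 NAD genes was among the 6. DMM replicate 4 was far above the other DMM kidneys in Nnt (2.71 CPM) and far below them in Sirt7 (13.0 CPM). DMM replicate 1 was far above the other DMM kidneys in Parp9 (212 CPM) and Parp12 (211 CPM). PBS replicate 3 was far above the other PBS kidneys in Slc5a8 (134 CPM) and Sod2 (135 CPM). All 6 values were thus in the 3 libraries that stood apart, 2 in each. Parp9, Parp12, Slc5a8 and Sod2 were named for their calls over 8 libraries, which leave out PBS replicate 3 and DMM replicate 1. Their flags in those libraries are therefore partly a result of that choice.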

How the results depend on the processing

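Over 10 libraries 0 members were called under any alternative, each library left out included (0 to 0). Over 8 libraries the members called ranged from 0 to 2 when a library was left out, with 2 (Naprt and Sirt3) without DMM replicate 4, and the added set of 6 libraries, chosen after seeing the data, called 1 (Sirt3). Genes called over 10 libraries numbered 41 with DESeq2, 990 over 8 libraries, and 0 to 469 when a library was left out, where only the set without DMM replicate 1 was above 0. Genes called over 8 libraries numbered 1663 with DESeq2, 2010 over 6 libraries and 344 to 2351 when a library was left out, the latter without DMM replicate 4. With library size alone 265 were higher and 679 lower, against 422 and 568, and the median log2 fold change of all genes moved from 0.021 to -0.093.

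The replicate number as a block left 0 genes and 0 members called over 10 libraries, and 0 genes and 0 members over replicates 2, 4 and 5 of the 8, where fewer libraries enter. The correlation of same-numbered deviations was -0.060, 0.079, 0.34, 0.12 and -0.22, so the numbers were not taken to pair the mice, and only PBS replicate 2 correlated best with its own number.

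Among genes named after their values were seen, Parp1 and Tnks turned from 0.023 and 0.43 over 8 libraries to -0.11 and -0.045 over 7. Sirt4 turned from -0.10 to 0.28. Of the 31 named genes compared under every alternative, signs turned in these. Over 10 libraries, Nadk was at 0.0066 with DESeq2, 0.0066 with RLE size factors, 0.0095 with a CPM filter, 0.00024 in protein-coding genes and 0.021 over 8 libraries. Cd38 was at -0.028 with library size alone, and Sirt1 at -0.086 with it, -0.013 with no filter and -0.0030 with the block. Over 8 libraries, Cd38, Nadk and Sirt1 were at -0.12, -0.090 and -0.019 with library size alone, Cd38 and Nadk at -0.039 and -0.0023 with the block, and Cd38, Sirt1 and Sarm1 at -0.079, -0.0090 and 0.23 over 6 libraries. Without a library in turn, Cd38 ranged from -0.066 to 0.17, Nadk from -0.023 to 0.030 and Sirt1 from -0.10 to 0.072 over 10 libraries. Over 8 they ranged from -0.18 to 0.12, -0.0038 to 0.042 and -0.018 to 0.17, and Sarm1 from -0.20 to 0.11. Over 10 libraries Naprt ranged from 0.12 to 0.39, Nadsyn1 from 0.067 to 0.29, Nmnat1 from 0.17 to 0.32, Nmnat3 from -0.32 to -0.083 and Nnmt from -0.25 to -0.10, with no change of sign. The cause was not tested. All 9 genes of like pattern were named again with a prior count of 0.5.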

Other observations

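Other marker lists gave these values over 8 libraries. Of 8 genes of the loop, distal tubule and collecting duct edgeR called 3 higher (7 over 7 libraries), with a median log2 fold change of 1.08 and Umod the most abundant. Of 8 fibroblast genes it called 2 lower (4 over 7 libraries), with a median of -0.82 and Col3a1 the most abundant. For 6 tubular injury genes 0 were called by edgeR, with 0 at an unadjusted p under 0.05 and a median of 0.076 (over 7 libraries 1 was called lower, Vcam1), and for 6 endothelial genes 0 were called, with 0 at an unadjusted p under 0.05 and a median of -0.019. The sums of the injury genes were led by Spp1 (mean 14315 CPM). Of 4 liver genes 3 were tested and 2 called higher (Alb and Serpina1a), or 3 over 7 libraries. In edgeR 0 genes were called of 5 for B cells, 4 tested for plasma cells, 6 for NK cells, 1 tested for adrenal and 1 tested for skeletal muscle, with 1, 3, 1, 0 and 0 at an unadjusted p under 0.05, and DESeq2 called 1, 1, 0, 0 and 0. Over 7 libraries edgeR called 1 B cell gene lower (Pax5).

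Clock, named after its values were seen, was at 300.1 CPM in DMM replicate 4 and from 81.5 to 102 CPM in the other 9 libraries, and Tnks was at 318 CPM there and from 118 to 135 CPM in the others.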
